A study of Mus musculus with 28 samples.

Results

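Small nucleolar RNAs (snoRNAs) are short, stable RNAs that direct the chemical modification and cutting of other RNAs. Box C/D snoRNAs (Snord rows) pair with ribosomal or spliceosomal RNA and place 2′-O-methyl groups through fibrillarin, and box H/ACA snoRNAs (Snora rows) place pseudouridines through dyskerin. In mammals most are cut out of the introns of host genes, and a few, among them Snord118 and Snord13, are transcribed from promoters of their own.

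The rows described here are those whose name starts with Snord or Snora in either RPKM table. Of 1385 such rows among 37583, the 200 with the highest mean RPKM over all 28 libraries were kept, 99 box C/D and 101 box H/ACA. RPKM is the number of reads of a row scaled for its length and for the depth of its library. Within this rule that mean was the only value used, and it includes the libraries compared below. The rule itself was set with earlier results of these data known. At the limit, SNORD86 and SNORD62 had means of 2.49 and 2.46 RPKM and were kept, while SNORA76 (ENSMUSG00000088891) and SNORA17 (ENSMUSG00000088479) had 2.39 and 2.38 RPKM and were not.

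The study asked how Polycomb Repressive Complex 2, the enzyme complex that methylates histone H3 at lysine 27, acts on transcription through methylation of Elongin A, a transcription elongation factor whose gene is listed as Tceb3. All cells were mouse. Embryonic stem cells (mESCs, passage 15 to 26) were kept on feeder fibroblasts with LIF and the 2i inhibitors and were separated from feeders by plating, and embryoid bodies (EBs) were taken on day 5 after LIF was withdrawn. The CJ7 line gave Eed null, K754M edited, K754R edited and wild type (WT) groups, with 2 mESC and 2 EB libraries each. Eed is a core subunit of the complex, and the edits replace a lysine of Elongin A. The CCE line gave 3 EloA null and 3 WT mESC libraries, and in EBs pair A, pair B and WT with 2 libraries each. For pair A the sample titles read EloA null and the data columns het, and for pair B the titles read EloA+/- and the columns null, so neither was given a genotype. Nothing states that replicates were separate cultures, so p-values measure the spread between libraries, which may be technical.

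The sequence of a snoRNA shows its class, and 183 of the 200 rows were found by gene ID in GENCODE M21 (GRCm38 build), all with the biotype snoRNA. Annotated lengths ran from 64 to 238 bases in 87 box C/D rows (median 75) and from 100 to 246 bases in 96 box H/ACA rows (median 133). Only 8 of the 87 box C/D rows had 100 bases or more. The letters TGATGA, a form of the C box, stood in the first 20 bases of 64.4% of box C/D rows, 1.04% of box H/ACA rows and 0.908% of 54082 other genes' first transcripts. CTGA, the D box, stood in the last 15 bases of 83.9% of box C/D rows, 0% of box H/ACA rows and 7.32% of the others. ACA stood in the last 6 bases of 9.2% of box C/D rows, 88.5% of box H/ACA rows and 8.02% of the others. Only the given strand was searched. The sequences below are those of some of the members with large differences, of 2 abundant short box C/D RNAs that were not called between Eed null and WT stem cells (Snord104 and SNORD101), and of imprinted members. Capitals mark the C box and D box in Snord rows and the ACA box in Snora rows, where these letters were found near the ends.
Snord15a, chr7:99482785-99482932, - strand: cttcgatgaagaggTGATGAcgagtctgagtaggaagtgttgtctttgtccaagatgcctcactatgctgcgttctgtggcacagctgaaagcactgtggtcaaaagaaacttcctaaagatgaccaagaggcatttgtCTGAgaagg
Snord118, chr11:69073427-69073561, + strand: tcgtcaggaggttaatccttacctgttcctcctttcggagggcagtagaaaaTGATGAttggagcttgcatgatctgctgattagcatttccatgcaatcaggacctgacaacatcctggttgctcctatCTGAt
SNORD94, chr6:71882557-71882693, - strand: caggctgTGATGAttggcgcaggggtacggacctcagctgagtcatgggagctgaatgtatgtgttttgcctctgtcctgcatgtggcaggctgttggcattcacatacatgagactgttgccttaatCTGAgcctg
Snord104, chr11:106500993-106501062, + strand: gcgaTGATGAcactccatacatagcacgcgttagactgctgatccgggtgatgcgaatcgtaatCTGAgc
SNORD101, chr10:23786470-23786543, - strand: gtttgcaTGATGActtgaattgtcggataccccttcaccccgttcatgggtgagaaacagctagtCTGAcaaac
SNORA48 (ENSMUSG00000084744), chr11:51737779-51737922, - strand: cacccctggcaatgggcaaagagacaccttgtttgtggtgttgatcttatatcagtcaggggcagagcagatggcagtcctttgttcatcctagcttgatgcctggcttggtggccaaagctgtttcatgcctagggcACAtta
SNORA46, chr8:95746060-95746195, - strand: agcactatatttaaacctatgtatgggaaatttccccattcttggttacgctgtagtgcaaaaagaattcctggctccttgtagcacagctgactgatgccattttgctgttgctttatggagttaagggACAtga
SNORA38 (ENSMUSG00000065653), chr10:108363665-108363798, + strand: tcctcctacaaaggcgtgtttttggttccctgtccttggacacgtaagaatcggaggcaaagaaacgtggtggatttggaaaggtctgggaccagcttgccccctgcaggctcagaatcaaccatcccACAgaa
SNORA32 (ENSMUSG00000065265), chr9:15316489-15316588, + strand: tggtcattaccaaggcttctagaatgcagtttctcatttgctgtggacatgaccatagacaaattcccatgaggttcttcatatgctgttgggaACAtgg
SNORD113 (ENSMUSG00000089509), chr12:109633768-109633842, + strand: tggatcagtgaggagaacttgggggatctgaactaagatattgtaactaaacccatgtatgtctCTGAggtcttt
SNORD113 (ENSMUSG00000064726), chr12:109686798-109686869, + strand: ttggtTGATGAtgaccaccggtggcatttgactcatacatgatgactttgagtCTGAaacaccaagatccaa
Snord107, chr7:59980876-59980945, - strand: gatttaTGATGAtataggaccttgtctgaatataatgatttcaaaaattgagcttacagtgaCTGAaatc
Snord64, chr7:59978808-59978874, - strand: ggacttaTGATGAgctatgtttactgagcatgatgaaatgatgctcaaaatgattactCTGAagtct

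All are transcripts of the GRCm38 annotation, while the deposited values were made on the mm9 build, so rows and sequences were joined by gene ID only. In the annotation 50 box C/D and 64 box H/ACA rows lay wholly in an intron of a host, and 25 and 24 rows overlapped a host exon. Whether reads were counted by strand is not given in the sources used here, so reads of an exon-overlapping snoRNA and of its host cannot be told apart. Names repeat: 39 box C/D and 70 box H/ACA rows share theirs with another row, no 2 of the annotated sequences are identical, and each row is kept by its ID. Because related copies could split reads, the values of such rows are less certain.

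Estimated depth was 10980000 to 18090000 reads in CJ7 mESC libraries, 24180000 to 46080000 reads in CCE mESCs, 28490000 to 39660000 reads in CJ7 EBs and 23470000 to 30670000 reads in CCE EBs. At that depth the median member had 34.7 reads (box C/D) or 63.4 reads (box H/ACA) in a library, and 12 members of each class had a median below 10 reads. The targeted genes went with the labels: Eed had 22.3 and 22.1 RPKM in Eed null mESCs, against 104.6 and 118.8 RPKM in WT, and 15.8 and 16.3 RPKM in Eed null EBs, against 49.6 and 55.3 RPKM in WT. Tceb3 had 8.02, 6.33 and 6.17 RPKM in EloA null mESCs, against 11.8, 11.2 and 10.7 RPKM in WT, so reads of the row were lower but not gone, and the deleted part of the gene is not given in the sources used here.

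Levels within each class were uneven. The 10 highest rows held 53.9% of the summed mean of box C/D members and 53.5% of that of box H/ACA members. The highest box C/D means were those of Snord17 (708.8 RPKM), Snord15a (496.9 RPKM), Snord118 (413 RPKM, the U8 RNA needed to process the large ribosomal RNAs) and SNORD94 (194.3 RPKM, which guides methylation of the spliceosomal U6 RNA). The highest box H/ACA means were those of Snora74a (1177 RPKM), SNORA73 (ENSMUSG00000064380, 1008 RPKM, a U17 RNA that works in early processing of 18S ribosomal RNA), SNORA32 (ENSMUSG00000065265, 554.6 RPKM) and SNORA4 (450.8 RPKM). Stem cell libraries of the CJ7 K754M, K754R and WT groups carry several of these ranks. Snord15a had 1726 to 2507 RPKM in those 6 libraries and 20.9 to 61.0 RPKM in the other 22, and SNORA4 had 1289 to 2628 RPKM in the 6 and 27.7 to 211.8 RPKM in the other 22. SNORA32 had 239.8 to 507.9 RPKM in the 6 and 303.6 to 844 RPKM in the other 22, which overlap.

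The libraries did not fall apart by stage alone. Summed box H/ACA RPKM was 21560 and 17890 in K754M mESCs, 21750 and 37910 in K754R mESCs and 18790 and 15840 in CJ7 WT mESCs. It was 5774 and 5894 in Eed null mESCs of the same line, 4656 to 5523 in EloA null mESCs and 4531 to 5162 in CCE WT mESCs. In EBs it lay between 4039 and 8392. Thus 6 CJ7 mESC libraries of K754M, K754R and WT stood above the other 22 libraries, the Eed null mESCs among them. The 200 rows held 4.79% to 9.03% of all summed RPKM in those 6 libraries and 1.25% to 2.17% in the other 22. Length went with the split inside the box C/D class. The 79 box C/D rows under 100 bases summed to 3004 and 2948 RPKM in Eed null mESCs, against 3051 and 3097 RPKM in WT, while the 8 longer ones summed to 643.5 and 641.8 RPKM in Eed null mESCs, against 5634 and 4499 RPKM in WT. The labels give no batch or library date that could be set beside this split.

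**Figure D1:**
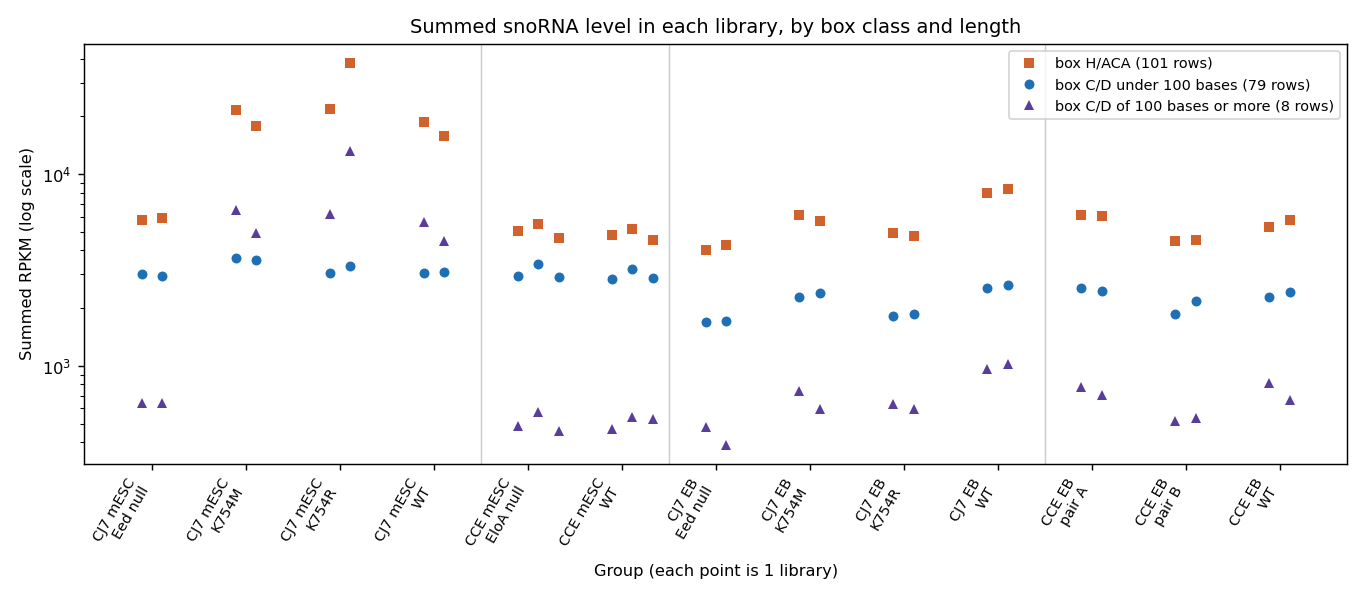
Summed RPKM (log scale) of box H/ACA members, of box C/D members under 100 bases and of box C/D members of 100 bases or more in each of 28 libraries, by group. Squares and triangles of K754M, K754R and WT CJ7 stem cells stand high (H/ACA 15840 to 37910 RPKM), while circles lie close together in all stem cell groups. The 12 box C/D rows without an annotated length are not drawn.

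The first comparison asks what loss of Eed does to snoRNA levels in stem cells. Of 100 box H/ACA rows tested in Eed null mESCs, 39 fell and 2 rose, and of 98 box C/D rows, 11 fell and 1 rose, where 8.59% of all 21012 rows were called (3.27% lower, 5.32% higher). A row is called at an adjusted p below 0.05 (limma on log2(RPKM + 0.5), Benjamini-Hochberg over all rows), and log2 changes on that scale understate those of low rows. The median log2 change, Eed null over WT, was -1.60 in box H/ACA rows, -0.15 in box C/D rows and 0.05 over all rows. The gap of 1.44 between the class medians rose to 1.64 among the 100 rows with the highest mean and was 0.28 over all Snord and Snora rows tested.

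Length split the box C/D class here too. Of 8 box C/D rows of 100 bases or more, 5 fell and all 8 had a change below 0, with a median of -2.63, against 6 lower and 1 higher of 79 shorter rows, 47 of them below 0, with a median of -0.15. Of the 6 short falls 5 were rows of the imprinted SNORD113 array described further on, and of the 61 short rows outside imprinted clusters 1 fell and 1 rose, with a median of 0.07. Among box H/ACA rows the median was -1.47 at 120 to 140 bases and -2.26 above 140 bases. Other short RNAs moved in the same libraries. Of 387 annotated small nuclear RNA rows 47 fell and 6 rose, and their sum was 1959 and 1964 RPKM in Eed null mESCs, against 11120 and 9360 RPKM in WT. Of 28 small Cajal body RNA rows, relatives of the snoRNAs that act on spliceosomal RNAs, 7 fell and 2 rose. Of 413 microRNA rows, 58 rose and 7 fell. Markers of cell state moved as well: the EB marker sum was 5.24 to 6.005 RPKM in Eed null mESCs, against 1.376 to 1.542 RPKM in WT, with 1 of 5 tested markers called higher. Of 7 stem cell markers 1 rose and 1 fell (sum 1409 to 1429 RPKM in Eed null mESCs, against 1229 to 1591 RPKM in WT), and of 10 feeder fibroblast markers 1 fell (sum 211.4 to 305.1 RPKM, against 206.7 to 223.6 RPKM in WT). Whether these markers or the library split described above have a part in the snoRNA differences was not tested. In bulk RNA, fewer cells of a type and less RNA per cell cannot be told apart either.

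**Figure D2:**
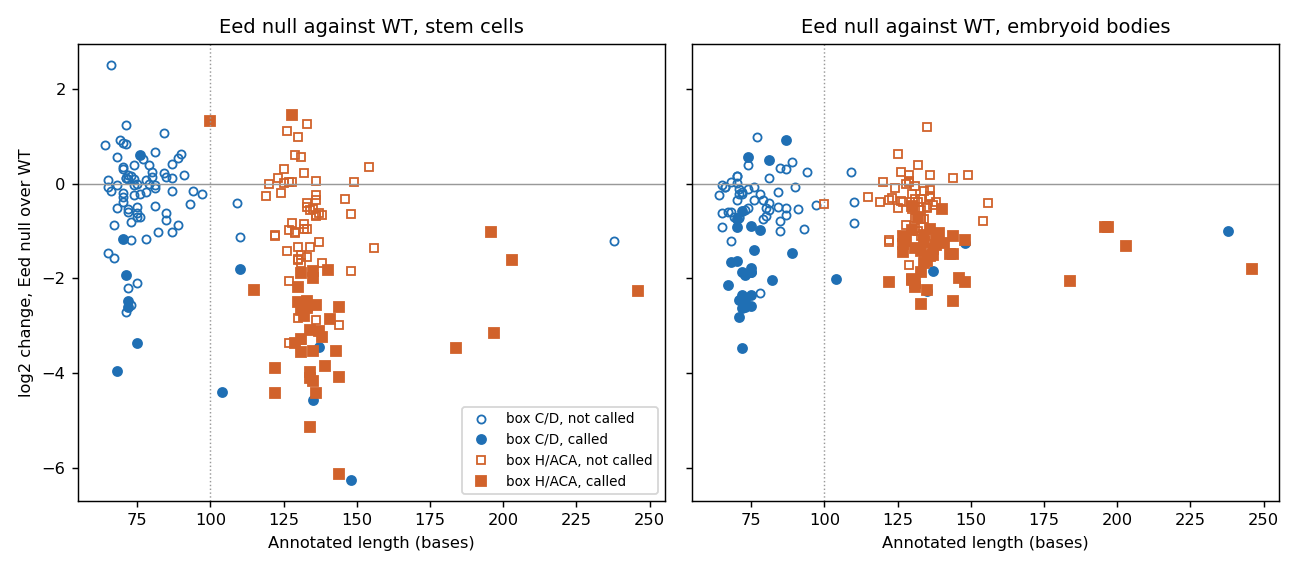
Log2 change, Eed null over WT, of each member with an annotated length (bases) in CJ7 stem cells (left) and embryoid bodies (right); filled points are called at an adjusted p below 0.05. In stem cells most short box C/D circles lie around 0 and the longer box C/D rows and most box H/ACA squares lie below, with Snord15a lowest at -6.26; in embryoid bodies short box C/D circles reach -3.48.

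Snord15a, a 148-base box C/D RNA in an intron of the ribosomal protein gene Rps3, had the largest change. It had 20.9 and 28.1 RPKM in Eed null mESCs, against 2081 and 1726 RPKM in WT, or about 43 and 56 reads against 3380 and 3449. The groups lie far apart, with a log2 change of -6.26 ± 0.22 (SE, adjusted p = 0.000238). It also had 2483 and 1850 RPKM in K754M mESCs and 2470 and 2507 RPKM in K754R mESCs, but 27.6 to 40.4 RPKM in the 6 CCE mESC libraries, so the Eed null level was close to that of the other line. Its host Rps3 had a log2 change of 0.23 ± 0.20 (adjusted p = 0.511).

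Snord118 and Snord13, which have promoters of their own, also fell. Snord118 (U8) had 42.2 and 45.2 RPKM in Eed null mESCs, against 1280 and 864 RPKM in WT, a log2 change of -4.57 ± 0.78 (SE, adjusted p = 0.0202). Snord13 (U13), which acts with 18S ribosomal RNA, had 13.9 and 20.1 RPKM in Eed null mESCs, against 388 and 336 RPKM in WT (log2 change -4.40 ± 0.27, SE). Both lay below CJ7 WT in the CCE line too, with 82.7 to 118 RPKM of Snord118 and 17.3 to 27.4 RPKM of Snord13 in the 6 CCE libraries. SNORD94 had 44.7 and 53.7 RPKM in Eed null mESCs, against 646 and 454 RPKM in WT.

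Short box C/D rows of high level gave other values. Snord104 had 206 and 202 RPKM in Eed null mESCs, against 216 and 287 RPKM in WT, and SNORD101 had 263 and 237 RPKM, against 244 and 264 RPKM in WT. In SNORD101 the groups overlap, and its log2 change was -0.02 ± 0.12 (SE, adjusted p = 0.933). Of the short box C/D rows Snord19, which overlaps an exon of the nucleostemin gene Gnl3, rose, with 63.0 and 69.9 RPKM in Eed null mESCs against 46.9 and 40.1 RPKM in WT (log2 change 0.61 ± 0.14, SE). It averaged 91.9 RPKM in K754M mESCs, 84.0 RPKM in EloA null and 59.1 RPKM in CCE WT. The CJ7 WT pair was the lowest of these groups, and the Eed null level lay below that of K754M.

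Among box H/ACA rows, SNORA38 (ENSMUSG00000065653) had 1.61 and 1.11 RPKM in Eed null mESCs, against 66.5 and 63.5 RPKM in WT, a log2 change of -5.15 ± 0.20 (SE, adjusted p = 0.000239), from about 3 and 2 reads in the Eed null libraries. SNORA48 (ENSMUSG00000084744) had 4.505 and 3.10 RPKM in Eed null mESCs, against 81.4 and 63.1 RPKM in WT. SNORA46 had 14.3 and 13.7 RPKM in Eed null mESCs, against 344 and 280 RPKM in WT (log2 change -4.42 ± 0.22, SE). The groups do not overlap in any of these rows, and the K754M and K754R levels (262 to 407 RPKM for SNORA46) lay with CJ7 WT. In reads, SNORA46 had about 27 and 25 in Eed null mESCs and 514 and 513 in CJ7 WT. The deeper CCE WT mESC libraries had about 140, 131 and 109 reads of it. Abundant box H/ACA rows fell by different amounts. SNORA4 averaged 93.7 RPKM in Eed null mESCs and 1340 RPKM in WT (log2 change -3.84). Snora23 averaged 73.6 RPKM in Eed null mESCs and 826.2 RPKM in WT (-3.48), and SNORA74 (ENSMUSG00000088059) 128.3 RPKM and 937.8 RPKM (-2.86). Levels were also low in the CCE line, where SNORA4 averaged 128.8 RPKM in WT and 192.4 RPKM in EloA null mESCs. Outside the 6 high CJ7 libraries, the other 22, Eed null among them, had 10.8 to 105.7 RPKM of Snora23. They had 37.5 to 147.7 RPKM of SNORA74 (ENSMUSG00000088059). Snora74a had 1209 and 1208 RPKM in Eed null mESCs, against 2662 and 2258 RPKM in WT (log2 change -1.02 ± 0.22, SE), and SNORA73 (ENSMUSG00000064380) had 615.8 and 546.9 RPKM, against 1963 and 1618 RPKM in WT.

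SNORA32 (ENSMUSG00000065265), which overlaps an exon of the gene Taf1d, went the other way. It had 609 and 602 RPKM in Eed null mESCs, against 240 and 246 RPKM in WT, a log2 change of 1.31 ± 0.16 (SE, adjusted p = 0.00686). Levels in the other stem cell groups were 478 and 499 RPKM in K754M, 388 and 508 RPKM in K754R, 478 to 534 RPKM in EloA null and 515 to 643 RPKM in CCE WT, so the CJ7 WT pair was the low group. SNORA17 (ENSMUSG00000077733) also rose, at 3.94 and 2.91 RPKM in Eed null mESCs against 0.711 and 1.16 RPKM in WT.

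Of 112 host genes 13, or 11.6%, were called in Eed null mESCs, beside 8.59% of all rows. Of 46 called members with a host that was tested, 6 had a host called in the same direction and 3 in the other. The 71 hosts of box H/ACA rows had a median log2 change of 0.04, beside -1.67 for the 85 rows they carry. Snora31 fell by 2.50 on the log2 scale while the row of its host Tpt1 rose by 1.81 (adjusted p = 0.0121), from a mean of 8.54 RPKM in WT to 31.2 RPKM in Eed null mESCs. Some host rows were far lower in stem cells than in EBs. In CJ7 WT Rpsa averaged 18.9 RPKM in mESCs and 1184 RPKM in EBs, while Rps3 averaged 940.2 and 1290 RPKM. The reason was not tested, so host values in stem cells are less certain. SNORA48 (ENSMUSG00000088856) fell by 6.13 on the log2 scale with its host Gsr, the glutathione reductase gene, at -1.51. Of the proteins that make up snoRNPs, Fbl, the box C/D methyltransferase fibrillarin, rose (log2 change 1.07 ± 0.19, SE, adjusted p = 0.0211), the other 3 box C/D core genes were not called, and none of 4 H/ACA core genes was. Of 11 assembly factors only Ruvbl2 was called (0.52), and of 17 genes of snoRNA end processing the RNase gene Parn (-0.75) and the poly(A) polymerase gene Papd5 (-0.70) fell. These shares, 9.09% and 11.8%, lay near the 8.59% of all rows.

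Each call rested on 2 libraries a group, with the spread estimated over all CJ7 mESC groups, the uneven K754R pair described below among them. The count of 53 called rows was 28 without Eed null replicate 1, 27 without Eed null replicate 2, 23 without WT replicate 1 and 28 without WT replicate 2, and 3 of 12 box C/D calls (Snord15a, Snord13 and SNORD94) and 19 of 41 box H/ACA calls were kept whichever of these was left out. The share of all rows called in those fits is not given, so fewer calls over all rows cannot be told apart from fewer snoRNA calls. When the 200 rows were chosen by their mean over the 20 libraries outside this fit, 194 were the same rows and the medians were -0.16 for box C/D and -1.35 for box H/ACA.

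The edited CJ7 stem cells gave no calls among the members when the CJ7 line was fitted alone. All CJ7 mESC groups shared an estimate of spread in that fit. The uneven K754R pair described below therefore also entered the errors of the K754M comparison. The 0 calls do not show that levels were unchanged. In K754M mESCs 0 of 198 rows were called, as were 0% of all rows. An unadjusted p below 0.05 in limma was found for 17 members and for 2103 of all 21012 rows. The median log2 changes were 0.28 for box C/D and 0.16 for box H/ACA. In K754R mESCs 0 of 198 rows were called, where 0.162% of all rows were called (0.0857% lower, 0.0761% higher). An unadjusted p below 0.05 in limma was found for 42 members and for 3000 of all 21012 rows. The medians were 0.20 for box C/D and 0.67 for box H/ACA. The K754R libraries differed from each other: Snord118 had 853.6 RPKM in replicate 1 and 5373 RPKM in replicate 2, and the median box H/ACA level was 50.2 RPKM in replicate 1 and 111 RPKM in replicate 2. The summed level of 10 feeder fibroblast markers was 263.4 RPKM in replicate 1 and 717.2 RPKM in replicate 2, against 206.7 and 223.6 RPKM in WT, and its part in the difference was not tested. Without K754R replicate 1 the class medians differed by -0.79 and without replicate 2 by -0.19, both with 0 calls. With all stem cell libraries in 1 fit, 6 rows were called in K754M mESCs (5 higher), or 3% of the members where 4.38% of all rows were called, and 20 in K754R mESCs (17 higher), or 10% where 8.02% of all rows were called. A filter at 5 RPKM gave 1 call in K754R mESCs.

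The same mutants were taken to embryoid bodies, where snoRNAs of both classes were lower in Eed null than in CJ7 WT. Of 99 box C/D rows 31 fell and 4 rose, and of 101 box H/ACA rows 43 fell and 1 rose, where 30.4% of all 19300 rows were called (11.2% lower, 19.2% higher). The median log2 change was -0.55 for box C/D, -0.76 for box H/ACA and 0.05 over all rows. Summed box C/D levels were 2381 and 2309 RPKM in Eed null EBs, against 3710 and 3897 RPKM in WT. Box H/ACA rows summed to 4039 and 4251 RPKM, against 7980 and 8392 RPKM in WT. The CJ7 WT pair, the reference of all CJ7 EB comparisons, had the highest sums of all EB libraries in both classes. In CCE WT EBs the sums were 3305 and 3278 RPKM for box C/D and 5311 and 5771 RPKM for box H/ACA. Whether the high WT pair has a part in the differences was not tested. The box C/D median was 0.21 above that of box H/ACA, within the spread between libraries (SD 0.23), and over all Snord and Snora rows the difference was -0.27. An imprinted cluster held 16 of the 31 box C/D falls: without the 16 SNORD113 rows, 15 of 83 box C/D rows fell and 4 rose, and their median was -0.39.

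SNORD113 RNAs lie in an array at the Dlk1-Dio3 imprinted region and come from long noncoding transcripts, among them Rian, made from the maternal chromosome. The 16 rows spanned chr12:109631074-109689544 (GRCm38), with 8 in the annotated Rian gene and 8 beyond it. All 16 fell in Eed null EBs, by 1.66 to 3.48 on the log2 scale with a median of -2.34, and all 16 calls were kept whichever of the 4 libraries was left out. Their sum was 79.7 and 90.7 RPKM in Eed null EBs, against 421.3 and 407.1 RPKM in WT. The row printed first above (ENSMUSG00000089509) had 14.2 and 12.4 RPKM in Eed null EBs, against 45.4 and 54.7 RPKM in WT. The second (ENSMUSG00000064726), past the end of Rian, had 0.352 and 0.403 RPKM in Eed null EBs, against 10.3 and 8.33 RPKM in WT, or about 1 and 1 reads against 23 and 19. Rian itself had 31.6 and 33.9 RPKM in Eed null EBs, against 223.7 and 211.2 RPKM in WT (log2 change -2.71 ± 0.11, SE, adjusted p = 2.09e-05). Its neighbours Meg3 and Mirg, also maternal noncoding RNAs, fell too (log2 change -2.41 and -1.77).

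In stem cells the array had the same direction with fewer calls. SNORD113 rows summed to 27.8 and 33.6 RPKM in Eed null mESCs, against 204.3 and 139.6 RPKM in WT. Of 16 rows 5 fell and none rose, with a median log2 change of -2.01, and Rian fell by 2.06 (adjusted p = 0.00127). The edits gave other values: SNORD113 rows summed to 409.3 and 483.1 RPKM in K754M EBs and 411.1 and 448.5 RPKM in K754R EBs, none of 16 was called in either by limma (0 and 0 at an unadjusted p below 0.05), and the medians were 0.06 and 0.00. In CCE EBs the sums were 484.3 and 405.3 RPKM in pair A, 446.2 and 452.9 RPKM in pair B and 474.9 and 432.4 RPKM in WT, which overlap.

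**Figure D3:**
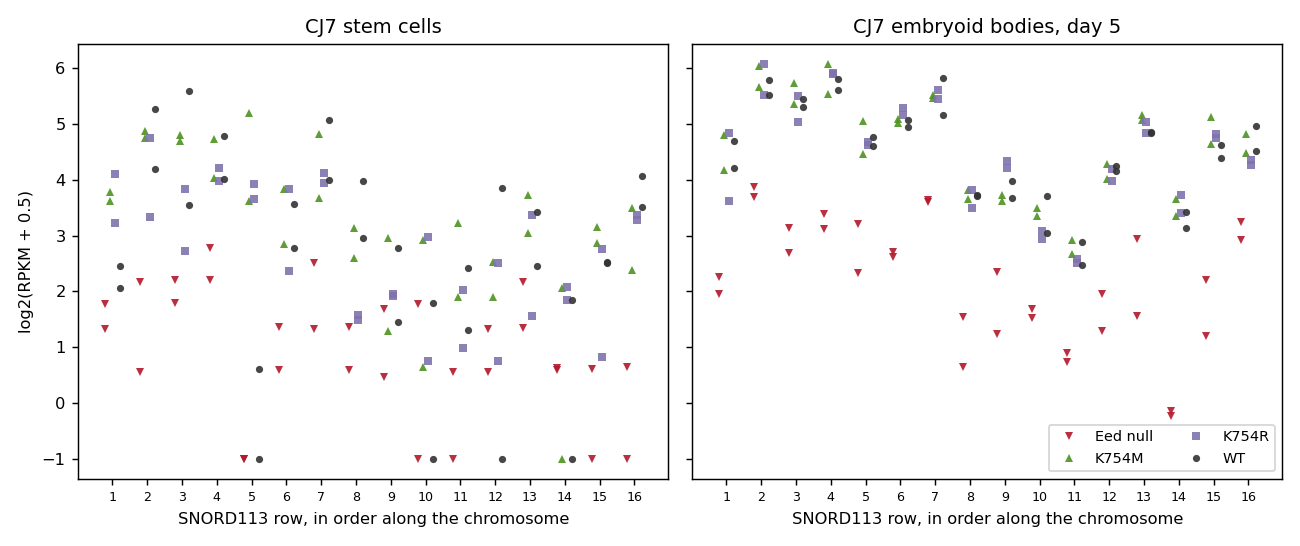
Level, log2(RPKM + 0.5), of the 16 SNORD113 rows in each CJ7 library, in order along the chromosome, in stem cells (left) and embryoid bodies (right). In embryoid bodies the Eed null triangles lie below the K754M, K754R and WT points in all 16 rows, while in stem cells points spread more and several are at 0 RPKM, drawn at -1.

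A second imprinted region carries Snord107 and Snord64, whose host transcripts are made from the paternal chromosome around Snrpn. Snord107 had 85.5 and 118.7 RPKM in Eed null EBs, against 277.6 and 352.5 RPKM in WT (log2 change -1.63 ± 0.19, SE, adjusted p = 0.000786). Snord64 had 19.7 and 23.9 RPKM in Eed null EBs, against 111.0 and 84.5 RPKM in WT (log2 change -2.13 ± 0.34, SE). Neither was called in Eed null mESCs, where Snord107 had 25.9 and 20.3 RPKM, against 31.4 and 22.4 RPKM in WT. Snord64 was lower there without a call, with about 10 and 7 reads in Eed null mESCs, against about 16 and 33 reads in WT. The gene annotated over both, Gm38393, fell by 0.57 on the log2 scale in Eed null EBs and by 0.89 in Eed null mESCs. In K754R EBs Snord107 had 231 and 236 RPKM and in K754M EBs 368 and 365 RPKM, not called in either.

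Outside the imprinted rows, falls in Eed null EBs included long box C/D and box H/ACA members. SNORA48 (ENSMUSG00000084744) had 4.37 and 3.60 RPKM in Eed null EBs, against 21.1 and 28.1 RPKM in WT (log2 change -2.47 ± 0.17, SE, adjusted p = 9.9e-05). SNORA70 (ENSMUSG00000064994) had 13.8 and 17.5 RPKM in Eed null EBs, against 71.0 and 81.1 RPKM in WT. Snord118 had 17.2 and 33.5 RPKM in Eed null EBs, against 109 and 127 RPKM in WT (log2 change -2.27 ± 0.28, SE), and Snord13 had 6.07 and 7.23 RPKM, against 25.9 and 31.1 RPKM in WT. Snord15a, which had differed most in stem cells, had 26.2 and 23.2 RPKM in Eed null EBs, against 58.5 and 61.0 RPKM in WT (log2 change -1.26 ± 0.12, SE). Of the abundant box H/ACA rows, Snora23 averaged 24.3 RPKM in Eed null EBs and 88.2 RPKM in WT, SNORA12 averaged 122.3 RPKM in Eed null EBs and 467.2 RPKM in WT, and SNORA8 averaged 66.8 RPKM in Eed null EBs and 178.2 RPKM in WT, and all 3 were called. Snora21 averaged 35.2 RPKM in Eed null, 42.3 RPKM in K754M and 37.5 RPKM in K754R EBs, against 91.6 RPKM in WT, and was called in each. By length, 5 of 8 box C/D rows of 100 bases or more fell (median -1.13), 7 of 61 shorter ones outside imprinted clusters fell and 3 rose (median -0.42), and 13 of 17 box H/ACA rows over 140 bases fell (median -1.25).

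In Eed null EBs 5 rows rose. SNORD101 had 170 and 124 RPKM in Eed null EBs, against 98.6 and 96.4 RPKM in WT, and Snord35b had 23.8 and 18.6 RPKM, against 10.3 and 11.6 RPKM in WT. The others were SNORD45 (log2 change 0.49), SNORD50 (ENSMUSG00000075724, 0.63) and SNORA32 (ENSMUSG00000087978, 1.25). In these EBs 22 of 112 hosts, or 19.6%, were called, beside the 30.4% of all rows. Of 60 called members with a tested host, 17 had a host called in the same direction, 8 of them SNORD113 rows in Rian, and 2 in the other. Snora78 and its host Snhg9 both fell (log2 change -1.22 and -0.96). The 112 hosts had a median log2 change of -0.02.

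Markers of cell state moved with these differences. All 7 stem cell markers were higher in Eed null EBs, with a sum of 688.2 to 758.4 RPKM against 101.9 to 122.8 RPKM in WT, and 7 of 8 EB markers were lower, with a sum of 59.4 to 74.4 RPKM against 164.4 to 202.3 RPKM in WT, with none of either list at 0 in all libraries of a group. Of 9 feeder fibroblast markers tested 3 were higher, while the sum of the list was 45.2 to 64.9 RPKM in Eed null EBs against 65.3 to 92.4 RPKM in WT, where 1 marker was at 0 in both libraries. Whether reads of the feeder list in EBs came from feeders or from cells of the EBs was not tested. The part of all these markers in the snoRNA differences was not tested. Of the snoRNP genes, the assembly factor gene Naf1, which is needed to build H/ACA particles, fell (log2 change -1.35, adjusted p = 0.0479), Nolc1 and Rpap3 rose (0.59 and 0.50), and no core gene was called. Of 17 genes of snoRNA end processing 4 rose and none fell. They were the exosome genes Exosc5 (log2 change 1.00), Exosc4 (0.48) and Exosc1 (0.44) and Dbr1 (0.73), which opens intron lariats. The shares called, 27.3% of 11 assembly factors and 23.5% of end processing genes, lay below the 30.4% of all rows. Of 28 small Cajal body RNA rows 11 fell and none rose.

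**Figure D4:**
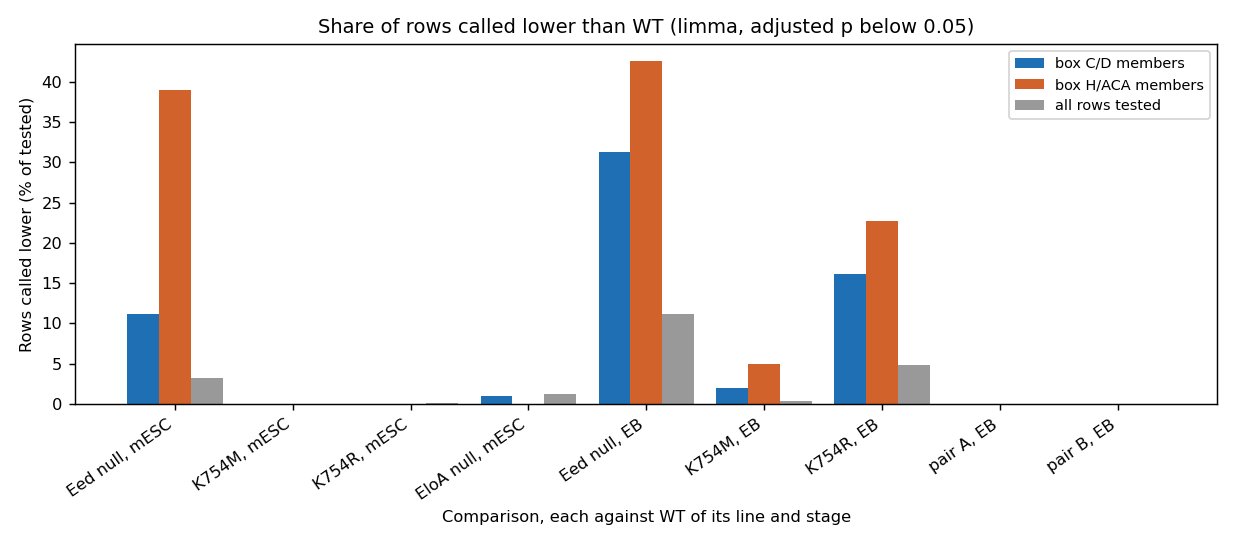
Share of tested rows called lower than WT (percent, limma adjusted p below 0.05) among box C/D members, box H/ACA members and all rows, in each of 9 comparisons. In Eed null mESCs 39 of 100 box H/ACA rows and 11 of 98 box C/D rows were lower, and bars of both classes stand above the grey bar of all rows in the 3 CJ7 embryoid body comparisons.

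K754R EBs also had lower levels than CJ7 WT in both classes. Of 99 box C/D rows 16 fell and 2 rose, and of 101 box H/ACA rows 23 fell and none rose, where 9.68% of all rows were called (4.85% lower, 4.82% higher). The medians were -0.41 for box C/D, -0.56 for box H/ACA and 0.01 over all rows, with the box C/D median 0.15 above that of box H/ACA (SD between libraries 0.05). Over all Snord and Snora rows this difference was -0.21, the opposite direction. Summed box H/ACA levels were 4899 and 4775 RPKM in K754R EBs, against 7980 and 8392 RPKM in WT. In CCE EBs these sums were 5311 and 5771 RPKM in WT, 6090 and 6074 RPKM in pair A and 4493 and 4549 RPKM in pair B. The Eed null, K754R and K754M comparisons in CJ7 EBs share their WT libraries, so the overlap of their calls is not given.

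Snord13 had 3.71 and 8.18 RPKM in K754R EBs, against 25.9 and 31.1 RPKM in WT (log2 change -2.25 ± 0.35, SE, adjusted p = 0.0123), and Snord104 had 78.6 and 72.4 RPKM, against 168 and 211 RPKM in WT. SNORA48 (ENSMUSG00000084744) had 5.84 and 6.33 RPKM in K754R EBs, against 21.1 and 28.1 RPKM in WT (log2 change -1.92 ± 0.17, SE). SNORA55 (ENSMUSG00000064655) had 25.7 and 23.5 RPKM in K754R EBs, against 84.4 and 77.4 RPKM in WT, and Snora74a had 625.6 and 558.9 RPKM, against 1358 and 1435 RPKM in WT. The groups do not overlap in any of these rows. The 2 rises, SNORD121A (log2 change 1.32, adjusted p = 0.0499) and Snord89 (0.86, adjusted p = 0.047), lay just past the threshold.

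A set of 3 short box C/D rows in introns of the noncoding gene 2410006H16Rik fell with their host. Snord65 had 16.2 and 19.3 RPKM in K754R EBs, against 53.6 and 55.7 RPKM in WT (log2 change -1.60 ± 0.12, SE, adjusted p = 0.00161). Snord49b had 34.8 and 36.5 RPKM in K754R EBs, against 83.5 and 75.0 RPKM in WT, and Snord49a had 42.6 and 32.5 RPKM, against 96.9 and 94.7 RPKM in WT. The host had 119.1 and 117.9 RPKM in K754R EBs, against 417.1 and 1023 RPKM in WT, which differ from each other (log2 change -2.46 ± 0.36, SE, adjusted p = 0.0104). Against the same WT pair, Snord65 (log2 change -0.57, limma adjusted p = 0.0109) and the host (-1.83, adjusted p = 0.00848) also fell in Eed null EBs. Snord49b was not called there. In K754M EBs Snord65 fell by 0.89, with the host at -1.25 and not called. Of 8 Snhg and Gas5 rows tested, noncoding hosts of snoRNAs, 5 fell and none rose in K754R EBs, among them Gas5 (log2 change -0.77) and Snhg1 (-1.12), and in Eed null EBs 3 fell. Of the snoRNP genes Nhp2, an H/ACA core protein, fell (log2 change -0.93 ± 0.19, SE, adjusted p = 0.0263), as did the Cajal body gene Coil (-0.62). They were the only calls among 4 H/ACA core genes and 11 assembly factors. In all, 6 of 31 called members with a tested host had a host called in the same direction and none in the other. Of 112 hosts 10, or 8.93%, were called in K754R EBs, beside 9.68% of all rows.

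**Figure D5:**
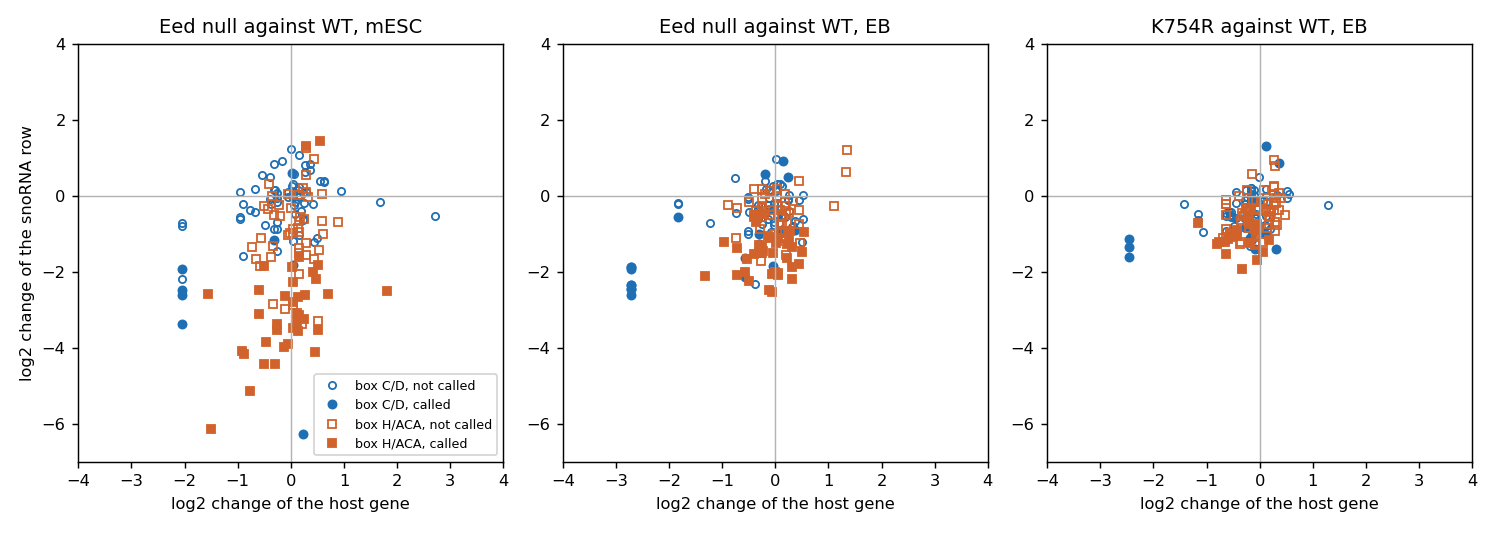
Log2 change of each member against that of its annotated host gene in 3 comparisons with WT; filled points are members called at an adjusted p below 0.05. Called members spread down to -6.26 over hosts near 0, with the SNORD113 rows over Rian at the left (host change -2.06 in Eed null mESCs and -2.71 in Eed null EBs) and 3 rows over 2410006H16Rik at -2.46 in K754R EBs.

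The K754R count was unsteady: 41 rows were called, and fewer whichever K754R or WT library was left out. The box C/D median then lay 0.0999 to 0.258 above that of box H/ACA. Kept in all were SNORD94, Snord49b and Snord65 of the 18 box C/D calls, and SNORA48 (ENSMUSG00000084744), SNORA55 (ENSMUSG00000064655), SNORA70 (ENSMUSG00000064994) and SNORA74 (ENSMUSG00000088059) of the 23 box H/ACA calls. Stem cell markers were lower in K754R EBs (4 of 7 called, sum 14.2 to 19.2 RPKM against 101.9 to 122.8 RPKM in WT). Of 8 EB markers 2 were higher and 2 lower (sum 120.1 to 145 RPKM against 164.4 to 202.3 RPKM in WT). Of 9 genes of the feeder fibroblast list 6 were higher (sum 81.6 to 96.6 RPKM against 65.3 to 92.4 RPKM in WT). Whether reads of that list came from feeders or from cells of the EBs was not tested. The part of all these markers in the snoRNA differences was not tested.

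In K754M EBs 2 of 99 box C/D and 5 of 101 box H/ACA rows fell and none rose, where 0.565% of all rows were called (0.383% lower, 0.181% higher). The medians were -0.11 for box C/D and -0.43 for box H/ACA, a difference of 0.32 (SD between libraries 0.10) that was -0.03 over all Snord and Snora rows. Summed box H/ACA levels were 6139 and 5722 RPKM in K754M EBs, against 7980 and 8392 RPKM in CJ7 WT. They were 5311 and 5771 RPKM in CCE WT EBs. SNORA48 (ENSMUSG00000084744) had 8.71 and 8.78 RPKM in K754M EBs, against 21.1 and 28.1 RPKM in WT (log2 change -1.43 ± 0.17, SE, adjusted p = 0.0283). Snord65 had 30.7 and 28.03 RPKM in K754M EBs, against 53.6 and 55.7 RPKM in WT, and SNORD94 had 43.7 and 39.9 RPKM, against 80.0 and 103 RPKM in WT. The 7 calls went to 0 without any of K754M replicate 1, K754M replicate 2, WT replicate 1 and WT replicate 2.

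In EloA null stem cells of the CCE line the class medians lay near that of all rows. Of 99 box C/D rows 4 rose and 1 fell, and of 101 box H/ACA rows 5 rose and none fell, where 3.35% of all 18460 rows were called (2.12% higher, 1.23% lower). The medians were -0.03 for box C/D, -0.02 for box H/ACA and -0.02 over all rows. The labels do not state that same-numbered libraries belong together, but here they deviated together (correlations 0.216 to 0.512). Values given for single rows are of the fit without a block. With the replicate as a block 33 rows were called (22 higher, 11 lower), or 16.5% of the members, where 12.4% of all rows were called in that fit. Its 11 falls were 10 box C/D rows and 1 box H/ACA row. The count of 10 without a block was 5, 4 and 3 without EloA null replicates 1, 2 and 3, and 8, 3 and 2 without WT replicates 1, 2 and 3.

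A pair of box C/D RNAs on exons of Gnl3, which encodes nucleostemin, rose with their host. Snord19 had 83.6, 88.6 and 79.8 RPKM in EloA null mESCs, against 57.6, 58.8 and 60.8 RPKM in WT (log2 change 0.50 ± 0.05, SE, adjusted p = 0.00653). Snord69 had 102, 114.1 and 100.7 RPKM in EloA null mESCs, against 67.8, 74.3 and 72.1 RPKM in WT, and Gnl3 had 284.6, 293.8 and 278.1 RPKM, against 196.1, 194.1 and 190.5 RPKM in WT. All EloA null values lie above all WT values in these rows. Snora31, in an intron of Tpt1, had 46.4, 52.0 and 44.2 RPKM in EloA null mESCs, against 31.2, 30.1 and 28.1 RPKM in WT (log2 change 0.66 ± 0.07, SE), and Tpt1 rose by 0.47. Snord19 and Snora31 were the calls kept whichever library was left out. The fall called without a block was SNORD63 (ENSMUSG00000089239) in an intron of Hspa9, with 10.02, 9.72 and 9.32 RPKM in EloA null mESCs against 14.0, 12.5 and 12.3 RPKM in WT. EloA null libraries were shallower (24180000 to 34470000 reads, against 42600000 to 46080000 reads in WT), and their feeder marker sum was 177.5 to 306.8 RPKM, against 102.9 to 222.8 RPKM in WT, with none of 10 markers called. All 10 feeder markers had a log2 change above 0, with a median of 0.80 and a lowest of 0.35. Their part in the snoRNA differences was not tested. Of 11 assembly factors Nufip1, which acts in box C/D particle assembly, rose (log2 change 0.54 ± 0.06, SE), and no core gene was called.

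The CCE EB pairs gave no calls among the members. In pair A 0 of 200 rows were called, where 0% of all rows were called. An unadjusted p below 0.05 in limma was found for 20 members and for 1166 of all 17735 rows. The medians were 0.05 for box C/D and 0.10 for box H/ACA. In pair B 0 of 200 rows were called, where 0.135% of all rows were called (0.0282% lower, 0.107% higher). An unadjusted p below 0.05 in limma was found for 45 members and for 2746 of all 17735 rows. The medians were -0.26 for box C/D and -0.14 for box H/ACA. SNORA32 (ENSMUSG00000065265) had 613 and 550 RPKM in pair A, 313 and 304 RPKM in pair B and 575 and 533 RPKM in WT, so both pair B values lie below the others without a call.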

How the data were processed

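RPKM values per gene were deposited by the authors in 1 table for mESCs and 1 for EBs. Per the labels' protocols, total RNA was depleted of ribosomal RNA with RiboZero Gold and made into libraries with a TruSeq total RNA kit. Per the submitters' processing notes, CASAVA 1.7, STAR and the mm9 build were used. How reads were counted, with which annotation and whether by strand, is not given in the sources used here. Depth was estimated from the steps between low RPKM values and GENCODE M21 lengths, with 89.3% to 93.2% of low values whole within 0.05 reads, and it bounds counting error only. Without whole counts, limma 3.58.1 (R 4.3.3) was fitted with a mean-variance trend to log2(RPKM + 0.5), 1 fit per stage and line, over rows with 2 libraries at 0.25 RPKM or more, and tested on simulated data. Sequences came from GENCODE M21. Members, gene lists, marker lists and the rule for named rows (the 10 highest means per class, up to 5 called rows per direction and comparison, imprinted rows, 2 rows on each side of the limit, hosts, Eed, Tceb3 and called snoRNP genes) were chosen with earlier results of these data known. For EloA null and WT mESCs a block fit is given beside the main fit, since same-numbered libraries deviated together (correlations 0.216 to 0.512). The labels do not state such a pairing. No 2 libraries were identical. Settings varied were the pseudocount, the filter on low values, scaling, the number and choice of rows, a replicate block, 1 fit per stage and each library left out. Choosing rows outside the fit, and leaving the second K754R mESC library out of the other CJ7 fits, were chosen after seeing the data. Figures were drawn with matplotlib 3.10.9 in Python 3.11.15.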

Additional observations from a re-analysis of the deposited data

Results flagged for a closer look

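These results had all libraries of a genotype on one side of WT in CJ7 stem cells and on the other side in embryoid bodies. The difference between stages was not tested. The ratio of means, Eed null over WT, was 2.49 in mESCs and 0.738 in EBs for SNORA32 (ENSMUSG00000065265), and 0.898 in mESCs and 1.94 in EBs for Snord35b. The ratio K754R over WT was 1.58 in mESCs and 0.689 in EBs for the summed box C/D level, 1.72 and 0.591 for the summed box H/ACA level, and 1.91 and 0.619 for box C/D rows of 100 bases or more. For single rows it was 1.64 in mESCs and 0.209 in EBs for Snord13, and 1.21 and 0.308 for SNORA74 (ENSMUSG00000088059). Without K754R mESC replicate 2, the library with 37910 RPKM of box H/ACA rows, the stem cell ratio was 1.14 for the box C/D sum, 1.26 for the box H/ACA sum, 1.22 for box C/D rows of 100 bases or more, 1.34 for Snord13 and 1.25 for SNORA74.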

How the results depend on the processing

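Counts here are of the 200 rows called, and gaps are the box C/D median less the box H/ACA median log2 change. Without a filter on low values the counts were 26 for Eed null mESCs (53 as reported), 1 for EloA null (10), 51 for Eed null EBs (79), 0 for K754M EBs (7) and 18 for K754R EBs (41), where 3.3%, 0.881%, 13.3%, 0.314% and 2.23% of all rows were called. With a filter at 5 RPKM they were 1 for K754R mESCs, 15 for K754M EBs and 6 for pair B, where 0.649%, 2.89% and 1.79% of all rows were called, and the K754R EB gap was 0.255. With all libraries of a stage in 1 fit they were 6 for K754M mESCs, 20 for K754R mESCs, 1 for EloA null, 14 for K754M EBs and 5 for pair B, where 4.38%, 8.02%, 1.36%, 2.17% and 2.95% of all rows were called. With the replicate block they were 33 for EloA null, 13 for K754M EBs, 67 for K754R EBs and 13 for pair B, where 12.4%, 1.19%, 15.3% and 3.96% of all rows were called. They were 56 for Eed null mESCs and 100 for Eed null EBs, where 12.3% and 36.6% of all rows were called. They were 0 for K754M mESCs, K754R mESCs and pair A, where 0%, 0.00952% and 0% of all rows were called. Outside the EloA null comparison same-numbered libraries had correlations of 0.0116 to 0.425, which overlap those of EloA null. No label states a pairing in any group. Over all Snord and Snora rows the gap was 0.276 for Eed null mESCs, -0.267 for Eed null EBs, -0.0275 for K754M EBs and -0.211 for K754R EBs, so the last 3 changed sign. For the 100 highest rows the count and gap were 35 and 1.64 for Eed null mESCs and 48 and 0.695 for Eed null EBs. Without rows that share a name they were 16 and 1.26 for Eed null mESCs, 3 and 0.150 for K754M EBs and 21 and 0.0807 for K754R EBs, and the count was 5 for EloA null and 32 for Eed null EBs. With rows chosen outside the fit the Eed null mESC gap was 1.19. Without the second K754R library the Eed null mESC count was 76. For that fit, and for those that left out 1 library, the share of all rows called is not given. These counts therefore cannot be told apart from a change in calls over all rows. Leaving out 1 library gave counts of 23 to 28 for Eed null mESCs, 2 to 8 for EloA null, 60 to 83 for Eed null EBs, 0 to 0 for K754M EBs and 9 to 31 for K754R EBs. Gaps were then 1.28 to 1.61 for Eed null mESCs, -0.0630 to 0.302 for K754M mESCs, -0.788 to -0.194 for K754R mESCs, -0.0609 to 0.0294 for EloA null, 0.169 to 0.264 for Eed null EBs, 0.197 to 0.380 for K754M EBs, 0.0999 to 0.258 for K754R EBs, -0.209 to 0.0550 for pair A and -0.287 to 0.0905 for pair B. Causes were not tested. Of 258 values of named members under settings other than leaving out a library, 224 kept their call, 34 lost it and 0 changed direction, and of 156 with a library left out 80 kept it and 76 lost it. Rows with few reads limit what could be called.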
